A study of Homo sapiens with 4 samples.

Results

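The genes of glucose uptake and glycolysis and those of fatty acid uptake and oxidation were examined in human cardiomyocytes of 2 origins. A list of 60 genes, chosen by their role, was taken from the 23615 gene symbols in the table. It holds 28 genes of glucose uptake, glycolysis, lactate and pyruvate export and pyruvate dehydrogenase kinases, and 32 genes of fatty acid release, uptake, binding, activation, mitochondrial import and oxidation. The rule for the list uses no measured value, but the list was chosen with earlier results of these data known.

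RNA was sequenced from unsorted day 14 cultures of RUES2, a human embryonic stem cell line, with 2 biological replicates in each group. Every culture began with the A100/B5 induction, named for its activin A (100 ng/ml) and its BMP4 (5 ng/ml). By the study's methods, standard cardiac cultures stayed in RPMI with B27, while endothelial cultures spent days 2 to 5 in Stempro34 and then moved to RPMI with B27, and B27 carried insulin from day 7. The medium of those days and the group cannot be told apart. The group called CPC holds cardiomyocytes that arose from cardiac progenitor cells, for which the study's supplement draws 1 µM XAV on day 3 in a part of its experiments. The group called ECsXAV holds cardiomyocytes that arose from anterior hemogenic endothelial cells, made with VEGF from day 2 and then given 2 µM XAV from day 5. XAV-939 inhibits tankyrase and so blocks Wnt/β-catenin signaling. Because the cells were not sorted, fewer cells of a type and less RNA per cell cannot be told apart. Sample names begin differently in the groups, and the group and the differentiation experiment cannot be told apart either. Nothing in the sources used here says which libraries of the groups were grown together.

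Values are FPKM, fragments divided by transcript length and by the mapped fragments of the library, so levels of different genes can be set beside each other within a library. The depth of ECsXAV replicate 2, CPC replicate 1 and CPC replicate 2 was 50.1%, 86.9% and 79.8% of that of ECsXAV replicate 1, and 12070 to 12240 genes reached 1 FPKM in a library. The 10 cardiomyocyte markers summed to 17500 and 16550 FPKM in ECsXAV and to 14770 and 15650 FPKM in CPC, and all 10 were detected in every library. Among them the myosin heavy chain MYH6 rose in CPC, from 855 and 857 FPKM to 2070 and 1901 FPKM, and MYH7 was higher in ECsXAV, at 1011 and 931 FPKM against 147 and 194 FPKM. Leaving out each library in turn gave adjusted p-values of 0.107 to 0.636 for MYH6, and 0.0727 to 0.0851 for MYH7 without ECsXAV replicate 1, ECsXAV replicate 2 or CPC replicate 1, while MYH7 passed without CPC replicate 2 (adjusted p = 0.045). Markers of other cell types also moved with the groups. The mesenchymal list summed to 381 and 386 FPKM in ECsXAV and to 189 and 200 FPKM in CPC, the hepatic and endoderm list to 48.2 and 40.7 against 19.0 and 21.3 FPKM, and the proliferation list to 101 and 82.0 against 31.4 and 35.8 FPKM. In these lists the tested markers past the criterion, which 2.15% of all tested genes met, were all higher in ECsXAV. They were AFP, TTR and APOA2 of 5 hepatic and endoderm genes, and COL1A1, COL3A1, LUM and TAGLN of 7 mesenchymal genes. The others were 6 of 10 proliferation genes. PDGFRA and ACTA2 of the mesenchymal list had the higher mean in CPC and did not pass. APOA1, most of the hepatic sum in CPC, read 20.6 and 17.9 FPKM in ECsXAV and 15.9 and 17.8 FPKM in CPC and did not pass. FGB was listed at 0 in both CPC libraries. Of 10 skeletal muscle markers only STAC3 was tested, and it rose in CPC from 1.91 and 2.19 FPKM to 23.6 and 17.7 FPKM (adjusted p = 0.00807, and 0.0702 without CPC replicate 1), while the others read at most 0.522 FPKM. The parts of these cells in the results given here were not tested.

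Glycolysis splits glucose into pyruvate in the cytosol and yields ATP without oxygen. Glucose enters through transporters of the SLC2A family, is trapped by hexokinase, is committed by phosphofructokinase, and leaves as pyruvate for the mitochondria or as lactate through monocarboxylate transporters. Fatty acids are taken up by CD36 and fatty acid transport proteins, carried by binding proteins, coupled to coenzyme A, passed into mitochondria by the carnitine shuttle and shortened by β-oxidation. The fetal heart is known to rely largely on glucose and lactate, and the adult heart largely on fatty acids. Cardiomyocytes grown from pluripotent stem cells are known to resemble the fetal state in this respect.

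Each log2 fold change is the difference of group means of log2(FPKM + 1), taken as CPC less ECsXAV, and it understates the change of weakly expressed genes. Negative values thus mean a higher level in ECsXAV cardiomyocytes. The limma test covered the 12398 genes with a mean of at least 1 FPKM and was adjusted over all of them by the Benjamini-Hochberg method. The criterion asked for a change of more than 2-fold together with an adjusted p below 0.05, and 2.15% of all tested genes met it. For a single value, 2 libraries in each group allow no two-sided p below 0.333 in an exact permutation test. The limma p-values therefore rest on a spread shared between genes.

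Of the 60 genes, 55 were expressed highly enough to be tested. The filter left out PDK4, LPL, FABP4, FABP5 and ACADL. Of the 27 tested glucose genes none passed the criterion in limma, and 4 had an unadjusted p under 0.05, a level that 18.2% of all tested genes reached. Of the 28 tested fatty acid genes 2 passed, CD36 and SLC27A6, both higher in ECsXAV cardiomyocytes, as were 1.44% of all tested genes. None passed in the direction of CPC, where 0.71% of all tested genes did. An unadjusted p under 0.05 was found for 12 of the 28 fatty acid genes. At any fold change, 2.89% of all tested genes had an adjusted p under 0.05, and CD36 and SLC27A6 were again the members among them.

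CD36 binds long-chain fatty acids at the cell surface and aids their uptake. The gene lies on chromosome 7 from 79998891 to 80308593 on the plus strand (GRCh37). It was read at 10.8 and 8.86 FPKM in the ECsXAV replicates and at 1.63 and 1.76 FPKM in the CPC replicates. Both ECsXAV libraries lay far above both CPC libraries, and the replicates of a group lay close together. The group means differed 5.80-fold in FPKM, and the log2 fold change was -2.0 (95% confidence interval -2.37 to -1.63, standard error 0.14, adjusted p = 0.0113, limma). Of 5 CD36 transcript models, 3 carried nearly all the signal. The model with the most signal over all libraries went from 4.02 and 4.62 FPKM in ECsXAV to 0.717 and 0.840 FPKM in CPC, and the other two were likewise higher in both ECsXAV libraries.

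SLC27A6, a fatty acid transport protein known for its expression in heart, lies on chromosome 5 from 127873706 to 128369335 on the plus strand (GRCh37). It was read at 29.4 and 28.0 FPKM in ECsXAV and at 11.6 and 10.3 FPKM in CPC. The groups stood clearly apart here as well, by 2.62-fold in mean FPKM. The log2 fold change was -1.31 (95% confidence interval -1.61 to -1.02, standard error 0.11, adjusted p = 0.0169, limma). Both of its transcript models were higher in both ECsXAV libraries, the more abundant at 14.5 and 22.4 FPKM against 7.91 and 5.56 FPKM, and the other, which varied more, at 14.9 and 5.59 FPKM against 3.71 and 4.77 FPKM.

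The SLC27A6 call was lost without any 1 of the 4 libraries and the CD36 call without any 1 of 3. Without ECsXAV replicate 1 the adjusted p was 0.0567 for CD36 and 0.122 for SLC27A6, without CPC replicate 1 it was 0.114 and 0.0952, and without CPC replicate 2 it was 0.0936 and 0.0896. Without ECsXAV replicate 2 SLC27A6 was also lost (adjusted p = 0.103), while CD36 still passed. The log2 fold change stayed between -2.13 and -1.87 for CD36 and between -1.39 and -1.23 for SLC27A6. With no filter on low values both had an adjusted p of 0.0523.

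CD36 is also known from capillary endothelium, fat cells and macrophages, and the lists of their markers were therefore read beside it. The 10 endothelial markers summed to 14.0 and 13.3 FPKM in ECsXAV and to 15.2 and 11.9 FPKM in CPC, with overlapping groups. KDR carried most of each sum, at 9.80 and 7.06 FPKM in ECsXAV and 10.8 and 8.69 FPKM in CPC, and none of the 3 markers tested passed the criterion. CDH5, at 1.19 and 1.49 against 0.875 and 0.649 FPKM, ESAM, at 0.948 and 1.46 against 0.624 and 0.509 FPKM, TEK, at 0.446 and 0.831 against 0.263 and 0.124 FPKM, CD34, at 0.337 and 0.373 against 0.215 and 0.305 FPKM, and VWF, listed at 0 in both CPC libraries, were higher in both ECsXAV libraries. EMCN went the other way, at 0.731 and 0.964 FPKM in ECsXAV and 1.79 and 0.975 FPKM in CPC. KDR, TIE1, ERG and PECAM1 overlapped between the groups. The part of these markers in the CD36 result was not tested. The levels within the list ranged widely, with PECAM1 at most 0.233 FPKM and VWF at most 0.0209 FPKM in any library, and KDR at 7.06 to 10.8 FPKM. The adipocyte list summed to at most 0.393 FPKM, with LEP, CIDEA and RETN at 0 in all libraries. The 8 blood and macrophage markers summed to 4.15 and 6.33 FPKM in ECsXAV and to 1.41 and 1.47 FPKM in CPC, in ECsXAV mostly as the embryonic globin HBE1, with PTPRC at 0 throughout. This sum was thus higher in both ECsXAV libraries, as was that of the hepatic and endoderm list given above. Their part in the CD36 result was not tested either.

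**Figure D1:**
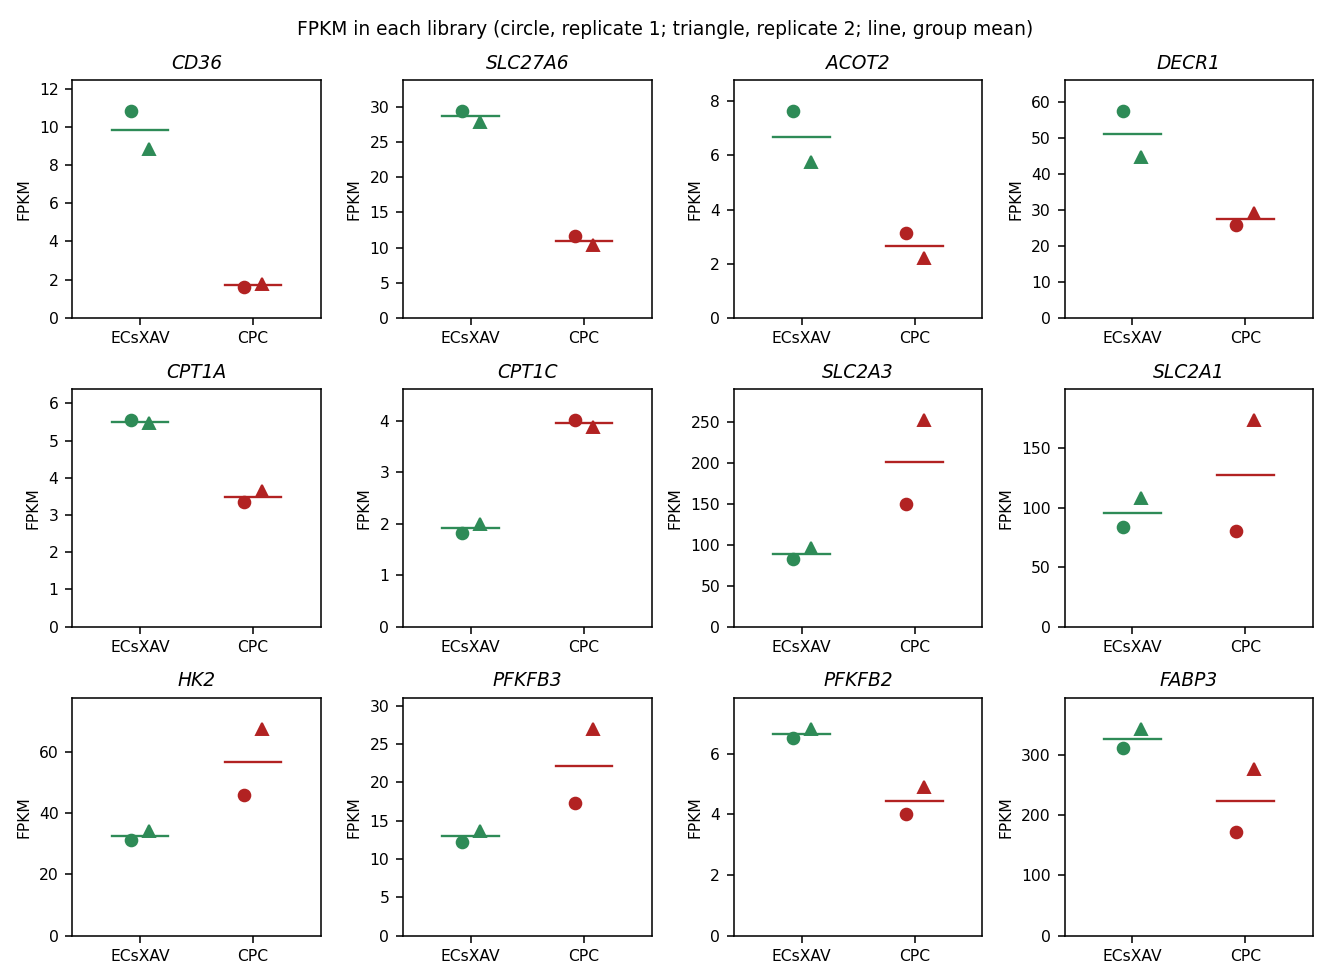
FPKM (vertical axes, from 0) in each library for 12 genes of both pathways, with ECsXAV in green, CPC in red, circles for replicate 1, triangles for replicate 2 and lines for the group means. CD36 and SLC27A6 are higher in both ECsXAV libraries with little spread, while SLC2A3, SLC2A1, HK2 and PFKFB3 spread widely between the CPC replicates.

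Promoter sequences of the genes were read to see what they hold in common. The RefSeq table (GRCh38.p14) had promoters of 50 of the 60 genes, 31 of them with a single start, and the 250 bases before each start were searched on both strands for 4 short motifs. These were ACGTG, the core of the element that hypoxia-inducible factors bind, GGGCGG, the GC box bound by SP1, AGGTCA, a nuclear receptor site, and TATAAA, the TATA box. A gene that passed the criterion and 3 glycolytic genes with a single start are printed here, 5′ to 3′ on the strand of the gene and ending at the base before the start, with each match in capitals. SLC27A6 is at chr5:128965238-128965487 on the plus strand, GAPDH at chr12:6535014-6535263 on the plus strand, PGK1 at chrX:78103998-78104247 on the plus strand and ALDOC at chr17:28576896-28577145 on the minus strand.
SLC27A6: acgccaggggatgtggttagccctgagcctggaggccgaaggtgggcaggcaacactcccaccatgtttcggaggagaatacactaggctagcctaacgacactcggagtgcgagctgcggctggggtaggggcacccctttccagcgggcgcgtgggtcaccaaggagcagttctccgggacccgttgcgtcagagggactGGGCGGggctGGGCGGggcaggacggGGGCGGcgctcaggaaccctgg
GAPDH: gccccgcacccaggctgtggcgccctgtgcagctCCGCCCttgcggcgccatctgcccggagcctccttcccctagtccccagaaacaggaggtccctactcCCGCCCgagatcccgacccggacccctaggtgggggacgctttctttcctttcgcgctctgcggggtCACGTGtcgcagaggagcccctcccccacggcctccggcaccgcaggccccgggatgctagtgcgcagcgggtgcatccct
PGK1: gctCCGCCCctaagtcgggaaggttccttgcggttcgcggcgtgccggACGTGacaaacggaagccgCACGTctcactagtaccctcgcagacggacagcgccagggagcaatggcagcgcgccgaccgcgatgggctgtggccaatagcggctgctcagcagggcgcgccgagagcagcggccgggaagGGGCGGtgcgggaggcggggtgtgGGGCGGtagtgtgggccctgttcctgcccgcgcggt
ALDOC: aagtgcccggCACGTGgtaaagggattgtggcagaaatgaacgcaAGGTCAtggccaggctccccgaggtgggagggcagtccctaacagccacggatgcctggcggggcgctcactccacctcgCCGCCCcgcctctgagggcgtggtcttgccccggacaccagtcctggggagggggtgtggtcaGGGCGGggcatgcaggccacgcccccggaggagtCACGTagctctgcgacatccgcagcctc

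The SLC27A6 promoter held 3 GC boxes, which begin 48, 38 and 22 bases before the start, and no ACGTG. Among the glucose genes with a single start, the 3 printed ones are those with more than 1 ACGTG match, so they do not stand for the list. In their promoters ACGTG was found on both strands. It formed a palindrome 81 bases before the start of GAPDH and single matches 202 and 183 bases before that of PGK1. Before the start of ALDOC it formed a palindrome at 240 bases and a single match at 28 bases. Of the other glucose genes with a single start, GPI, ENO2 and PDK3 held ACGTG. The promoters of ENO1, PKM, PFKL, PGAM1, PGAM2, SLC2A1 and PDK4, also with a single start, did not. Across all starts, ACGTG was found in 34.6% of 52 windows of glucose genes (15 of 24 genes) and in 16.7% of 42 windows of fatty acid genes (7 of 26 genes). Among all 35116 windows it was found in 18.5% (5935 of 27305 genes). The glucose genes have more windows for each gene than all genes do, which can raise their count of genes with a match. In the windows of glucose genes, of fatty acid genes and of all genes, the GC box was in 59.6%, 54.8% and 42.6%. The TATA box was in 7.69%, 7.14% and 10.7% of them, and AGGTCA in 13.5%, 0% and 12.1%. The windows of the genes were richer in G and C than others, with a median of 65.6% against 58.0%, and windows of one gene can overlap. A match is a description of the letters and no sign of binding.

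The other proteins of fatty acid release and binding did not pass the test. FABP3, the heart-type fatty acid binding protein, was the most abundant fatty acid gene of the list, with 312 and 343 FPKM in ECsXAV and 173 and 276 FPKM in CPC. Both CPC libraries lay below both ECsXAV libraries, but the CPC replicates differed from each other as much as the groups did, and the log2 fold change of -0.58 had an adjusted p of 0.315. SLC27A1, another fatty acid transport protein, read 6.73 and 9.38 FPKM in ECsXAV and 7.87 and 10.2 FPKM in CPC, with overlapping groups. Lipoprotein lipase LPL, which frees fatty acids from circulating lipids, stayed under the filter with 0.790 and 0.585 FPKM in ECsXAV and 0.484 and 0.272 FPKM in CPC. FABP4, the binding protein of fat cells, was listed at 0 in all 4 libraries. FABP5 was listed at 0.0853 and 0.170 FPKM in ECsXAV and at 0 in both CPC libraries, a level so near 0 that it allows no comparison. Processed copies of FABP5 exist elsewhere in the genome, so its level is uncertain.

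SLC27A6 made up 81.4% and 74.9% of the summed FPKM of SLC27A6 and SLC27A1 in ECsXAV, and 59.6% and 50.4% in CPC. The groups did not overlap (exact permutation test, two-sided, p = 0.333, the smallest that 2 against 2 can give). The sum of both was 36.2 and 37.3 FPKM in ECsXAV and 19.5 and 20.5 FPKM in CPC.

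Acyl-CoA synthetases couple fatty acids to coenzyme A, and thioesterases cut that bond again. The synthetases ACSL1 and ACSL3 read 22.1 to 31.7 FPKM in all libraries, with overlapping groups. ACSL4 read 19.1 and 17.2 FPKM in ECsXAV and 15.8 and 12.3 FPKM in CPC and made up 24.8% of the summed FPKM of the 3 synthetases in ECsXAV and 20.0% in CPC (means of n = 2). ACOT2, a mitochondrial thioesterase, showed the largest difference of this group. It was read at 7.63 and 5.74 FPKM in ECsXAV and at 3.11 and 2.21 FPKM in CPC, with no overlap, and its log2 fold change of -1.07 had an adjusted p of 0.072. ACOT1, which is nearly identical to ACOT2 in sequence, read 0.516 and 1.03 FPKM against 0.186 and 0.364 FPKM, and how reads shared by both were divided is not given in the sources used here.

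The carnitine shuttle moves acyl groups across the mitochondrial membranes. Its first enzyme exists in 3 forms, none of which passed the test. CPT1A, the liver form, read 5.55 and 5.46 FPKM in ECsXAV and 3.35 and 3.64 FPKM in CPC, and its log2 fold change of -0.53 did not pass (adjusted p = 0.0993). CPT1C, a form best known from neurons, read 1.82 and 1.99 FPKM in ECsXAV and 4.01 and 3.88 FPKM in CPC. It had the largest difference toward CPC of all tested fatty acid genes, 0.77 on the log2 scale (standard error 0.13, adjusted p = 0.0566), and replicates of a group agreed closely. CPT1B, the muscle form, was the most abundant in every library, with 14.4 and 13.9 FPKM in ECsXAV and 14.1 and 12.3 FPKM in CPC, and its groups overlapped.

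As shares of the summed FPKM of the 3 forms, CPT1B held 65.7% in ECsXAV and 63.8% in CPC (means of n = 2), while CPT1A held 25.4% and 25.5% in ECsXAV and 15.6% and 18.4% in CPC, and CPT1C 8.37% and 9.30% against 18.7% and 19.6%. The sum itself lay between 19.8 and 21.8 FPKM in all 4 libraries. The order of the forms thus differed between the groups, with CPT1A above CPT1C in both ECsXAV libraries and CPT1C above CPT1A in both CPC libraries. The exact permutation p was 0.333 for the shares of CPT1A and CPT1C. Further along the shuttle, the carnitine carrier SLC25A20 read 14.5 and 13.3 FPKM in ECsXAV and 10.9 and 10.2 FPKM in CPC, and CPT2 14.9 and 15.2 against 12.3 and 13.9 FPKM.

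Malonyl-CoA, which holds back the first step of the shuttle, is made by ACACB and removed by MLYCD. ACACB read 15.0 and 15.1 FPKM in ECsXAV and 12.2 and 9.45 FPKM in CPC. MLYCD read 10.7 and 11.3 FPKM in ECsXAV and 8.38 and 9.40 FPKM in CPC. Both were lower in both CPC libraries, by a log2 fold change of -0.45 for ACACB and -0.28 for MLYCD, and neither passed the test.

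No enzyme of β-oxidation itself passed the criterion. Among the acyl-CoA dehydrogenases, which take the first step, the very long-chain enzyme ACADVL was the most abundant, at 87.2 and 92.1 FPKM in ECsXAV and 72.1 and 78.9 FPKM in CPC. The short-chain enzyme ACADS read 16.1 and 18.8 FPKM against 11.4 and 12.9 FPKM, which did not pass (log2 fold change -0.49, adjusted p = 0.146). The medium-chain enzyme ACADM overlapped between the groups at 28.8 and 24.3 against 28.1 and 22.1 FPKM. The long-chain enzyme ACADL stayed under the filter, with 0.415 and 0.197 FPKM in ECsXAV and 0.500 and 0.396 FPKM in CPC.

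Of the later steps, HADHA and HADHB, the subunits of the trifunctional protein, the hydratase ECHS1 and the thiolase ACAA2 read 38.4 to 83.2 FPKM over all libraries, and their groups overlapped. The auxiliary enzyme DECR1, which handles unsaturated fatty acids, stood out with 57.3 and 44.6 FPKM in ECsXAV and 25.8 and 29.2 FPKM in CPC. Its log2 fold change was -0.86 with an adjusted p of 0.0743. ECI1, an isomerase for unsaturated chains, read 72.0 and 85.9 FPKM in ECsXAV and 51.4 and 63.6 FPKM in CPC. HADH, the dehydrogenase for medium and short chains, was the exception in direction, at 36.9 and 36.3 FPKM in ECsXAV and 48.7 and 47.6 FPKM in CPC, with a log2 fold change of 0.39 and an adjusted p of 0.138. The electron transfer flavoproteins, which pass the electrons on to the respiratory chain, read 133 and 115 FPKM (ETFA), 104 and 109 FPKM (ETFB) and 15.7 and 11.8 FPKM (ETFDH) in ECsXAV. In CPC they read 97.3 and 91.4, 102 and 107, and 10.1 and 10.8 FPKM. ETFA and ETFDH were lower in both CPC libraries, and ETFB overlapped.

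The fatty acid genes leaned toward ECsXAV as a list, mostly by small amounts. Of the 28 tested, 24 had the lower mean in CPC and 4 the higher, with a median log2 fold change of -0.26, beside -0.005 over all tested genes. The groups did not overlap for 16 genes higher in ECsXAV, as for 25.4% of all tested genes, and for 2 genes higher in CPC, as for 24.4% of all tested genes. For 22 of the 28 the 95% confidence interval lay within a 2-fold change either way, as for 10874 of all 12398 tested genes. The summed FPKM of the cardiomyocyte markers was also lower in both CPC libraries, as given above. Of these 10 markers, 7 had the lower mean in CPC and 3 the higher. MYL7, the largest part of the sum, read 8786 and 8535 FPKM in ECsXAV and 6701 and 7142 FPKM in CPC. TNNT2 was higher in both CPC libraries, at 2453 and 2309 FPKM in ECsXAV and 2696 and 2988 FPKM in CPC, as was MYH6. The part of these markers in the fatty acid result was not tested.

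Glucose transport came nearest to a difference among the glucose genes. SLC2A3, a transporter of high affinity, read 82.3 and 95.6 FPKM in ECsXAV and 150 and 252 FPKM in CPC. Both CPC libraries lay above both ECsXAV libraries, 2.26-fold in mean FPKM, and the CPC replicates lay far apart. The log2 fold change of 1.12 (standard error 0.27, 95% confidence interval 0.42 to 1.82) was the largest among the glucose genes and had an adjusted p of 0.122. SLC2A14, which shares much of its sequence with SLC2A3, read at most 0.313 FPKM. SLC2A1, the widespread transporter, overlapped between the groups at 83.5 and 108 against 80.8 and 174 FPKM. SLC2A4, the insulin-responsive transporter of muscle and fat, was the weakest of the 3, at 17.5 and 20.0 FPKM in ECsXAV and 22.0 and 26.1 FPKM in CPC.

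SLC2A3 made up 44.9% and 42.8% of the summed FPKM of these 3 transporters in ECsXAV and 59.3% and 55.8% in CPC, and SLC2A1 45.5% and 48.3% in ECsXAV and 32.0% and 38.4% in CPC. SLC2A3 led in both CPC libraries. SLC2A1 led in both ECsXAV libraries, but in replicate 1 the 2 were nearly level, at 45.5% and 44.9%. The share of each did not overlap between the groups (exact permutation test, two-sided, p = 0.333).

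Hexokinase traps glucose in the cell. HK1, the main form, read 154 and 158 FPKM in ECsXAV and 156 and 186 FPKM in CPC, with overlapping groups. HK2, the form that insulin and hypoxia are known to induce, read 31.1 and 34.0 FPKM in ECsXAV and 45.9 and 67.5 FPKM in CPC. Its log2 fold change was 0.76 and its adjusted p 0.149, and it held 17.3% ± 0.641 of the summed FPKM of both in ECsXAV and 24.7% ± 2.75 in CPC (SD, n = 2). The isomerase GPI read 222 and 266 FPKM against 178 and 250 FPKM.

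The bifunctional PFKFB enzymes make and remove the sugar phosphate that activates phosphofructokinase, and neither of the forms listed passed the test. PFKFB3, the form with mainly kinase activity, read 12.3 and 13.7 FPKM in ECsXAV and 17.3 and 26.9 FPKM in CPC (log2 fold change 0.70, adjusted p = 0.20). PFKFB2, the heart form, read 6.50 and 6.81 FPKM in ECsXAV and 4.0 and 4.89 FPKM in CPC. That was the largest difference toward ECsXAV among the glucose genes, -0.50 on the log2 scale (standard error 0.13, adjusted p = 0.148). PFKFB3 held 65.3% and 66.7% of the summed FPKM of PFKFB2 and PFKFB3 in ECsXAV and 81.2% and 84.6% in CPC. Of the 2 PFKFB3 transcript models, the more abundant read 6.83 and 7.85 FPKM in ECsXAV and 11.7 and 19.9 FPKM in CPC, and the other 5.43 and 5.83 FPKM against 5.61 and 6.98 FPKM. Phosphofructokinase itself was read mainly as the platelet form PFKP, at 384 and 391 FPKM in ECsXAV and 300 and 384 FPKM in CPC. The muscle form PFKM read 83.3 and 86.7 against 71.6 and 76.9 FPKM, and the liver form PFKL 45.0 to 51.4 FPKM over all libraries. PFKP held 74.4% of the summed FPKM of the 3 forms in ECsXAV and 73.4% in CPC, with overlapping groups.

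The enzymes from aldolase to pyruvate kinase ranged widely in level, and none of them had an unadjusted p under 0.05. GAPDH, whose promoter is printed above with those of PGK1 and ALDOC, read 2175 and 2534 FPKM in ECsXAV and 1652 and 2558 FPKM in CPC. Aldolase was almost all ALDOA, with 1582 and 2003 FPKM against 1436 and 1955 FPKM, while ALDOC read 42.5 to 70.9 FPKM. The enolase ENO1, the widespread form, read 1133 and 1442 FPKM in ECsXAV and 1197 and 1417 FPKM in CPC. The muscle enolase ENO3 read 232 and 241 FPKM against 276 and 281 FPKM and was the only gene of this stretch higher in both CPC libraries. The neuronal enolase ENO2 read 102 to 161 FPKM over all libraries.

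Of phosphoglycerate mutase, the muscle form PGAM2 exceeded PGAM1 in every library, at 49.3 and 53.3 FPKM in ECsXAV and 52.1 and 59.8 FPKM in CPC, and PGAM1 read 10.1 and 10.3 against 7.67 and 8.69 FPKM. PGAM2 held 83.4% of the sum of both in ECsXAV and 87.2% in CPC. PGAM1 and GAPDH have processed copies in the genome, so their levels are uncertain, and PGAM4, such a copy of PGAM1, read at most 0.305 FPKM. TPI1, PGK1 and the pyruvate kinase gene PKM read 274 to 354, 409 to 449 and 599 to 704 FPKM, with overlapping groups. The M2 transcript of PKM, the form of fetal and dividing tissue, read 275 and 319 FPKM in ECsXAV and 286 and 383 FPKM in CPC. The transcript models of the M1 form with a value read at most 1.17 FPKM, but another model with 311 to 367 FPKM was not assigned to either form here.

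Pyruvate can leave the cell as such or as lactate, or enter the mitochondria, where pyruvate dehydrogenase kinases hold back its oxidation. The monocarboxylate transporter SLC16A1 read 81.0 to 96.4 FPKM and SLC16A3 49.1 to 84.2 FPKM, with overlapping groups. PDK1 was the main kinase in every library, at 261 and 231 FPKM in ECsXAV and 245 and 223 FPKM in CPC. PDK2 read 25.8 to 34.3 FPKM, and PDK3 12.2 and 12.1 FPKM in ECsXAV and 14.0 and 14.3 FPKM in CPC. PDK4, the form known for its induction by fatty acids and fasting, stayed under the filter with 1.09 and 0.747 FPKM in ECsXAV and 0.535 and 0.324 FPKM in CPC. PDK1 held 84.7% ± 2.32 of the summed FPKM of the 4 kinases in ECsXAV and 83.9% ± 2.72 in CPC (SD, n = 2), within the spread of the replicates.

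**Figure D2:**
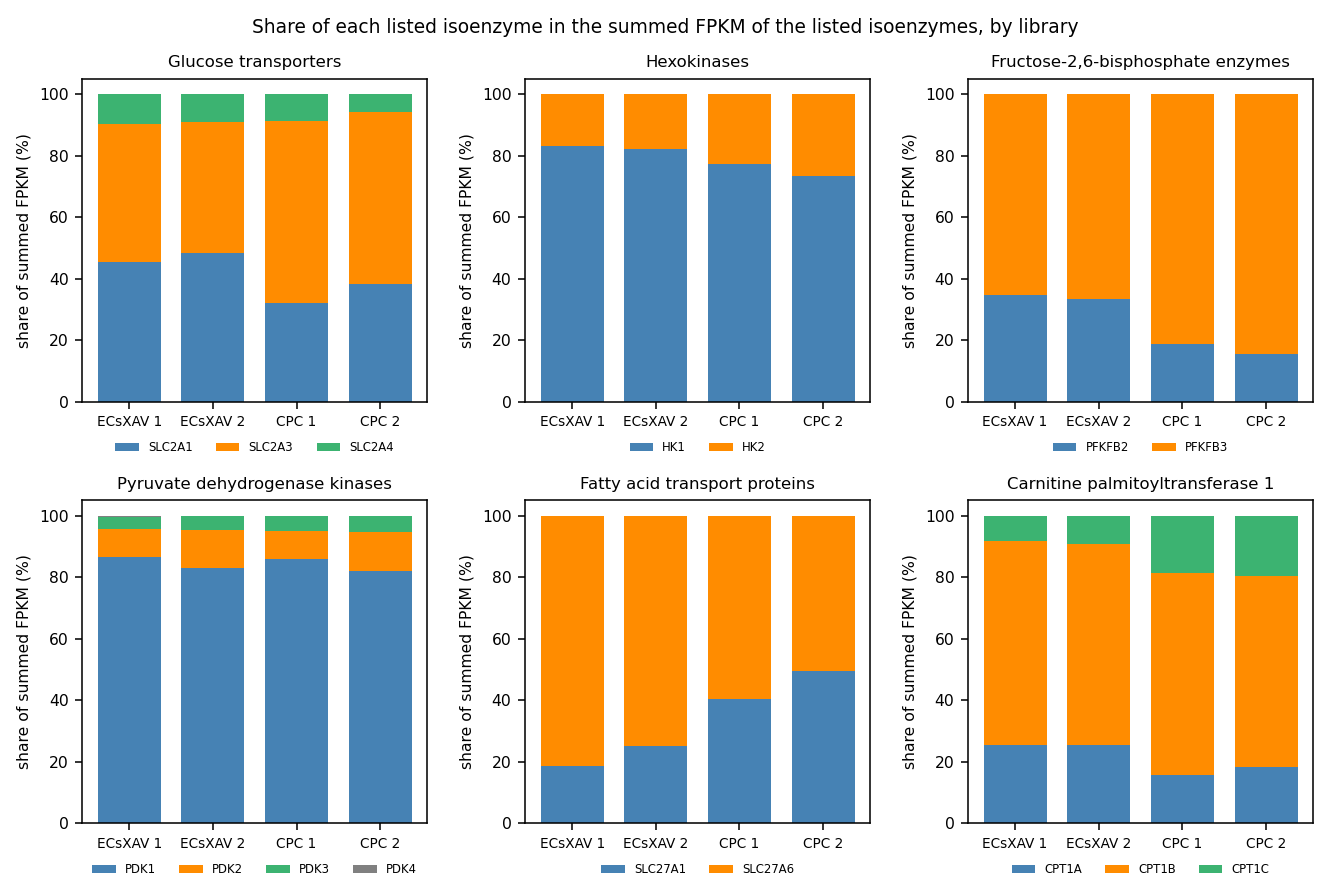
Share in percent (vertical axes, from 0) of each listed isoenzyme in the summed FPKM of the listed isoenzymes, 1 bar for each library. SLC2A3, HK2, PFKFB3 and CPT1C take larger shares in both CPC libraries, SLC27A6 and CPT1A in both ECsXAV libraries, and the share of PDK1 overlaps between the groups.

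As a list the glucose genes leaned to neither side. Of the 27 tested, 15 had the higher mean in CPC and 12 the lower, with a median log2 fold change of 0.018, beside -0.005 over all tested genes. The groups did not overlap for 3 genes higher in ECsXAV, as for 25.4% of all tested genes, and for 6 higher in CPC, as for 24.4%. The 95% confidence interval lay within a 2-fold change for 23 of the 27, as for 10874 of all 12398 tested genes. The exceptions were SLC2A1, SLC2A3, HK2 and PFKFB3.

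**Figure D3:**
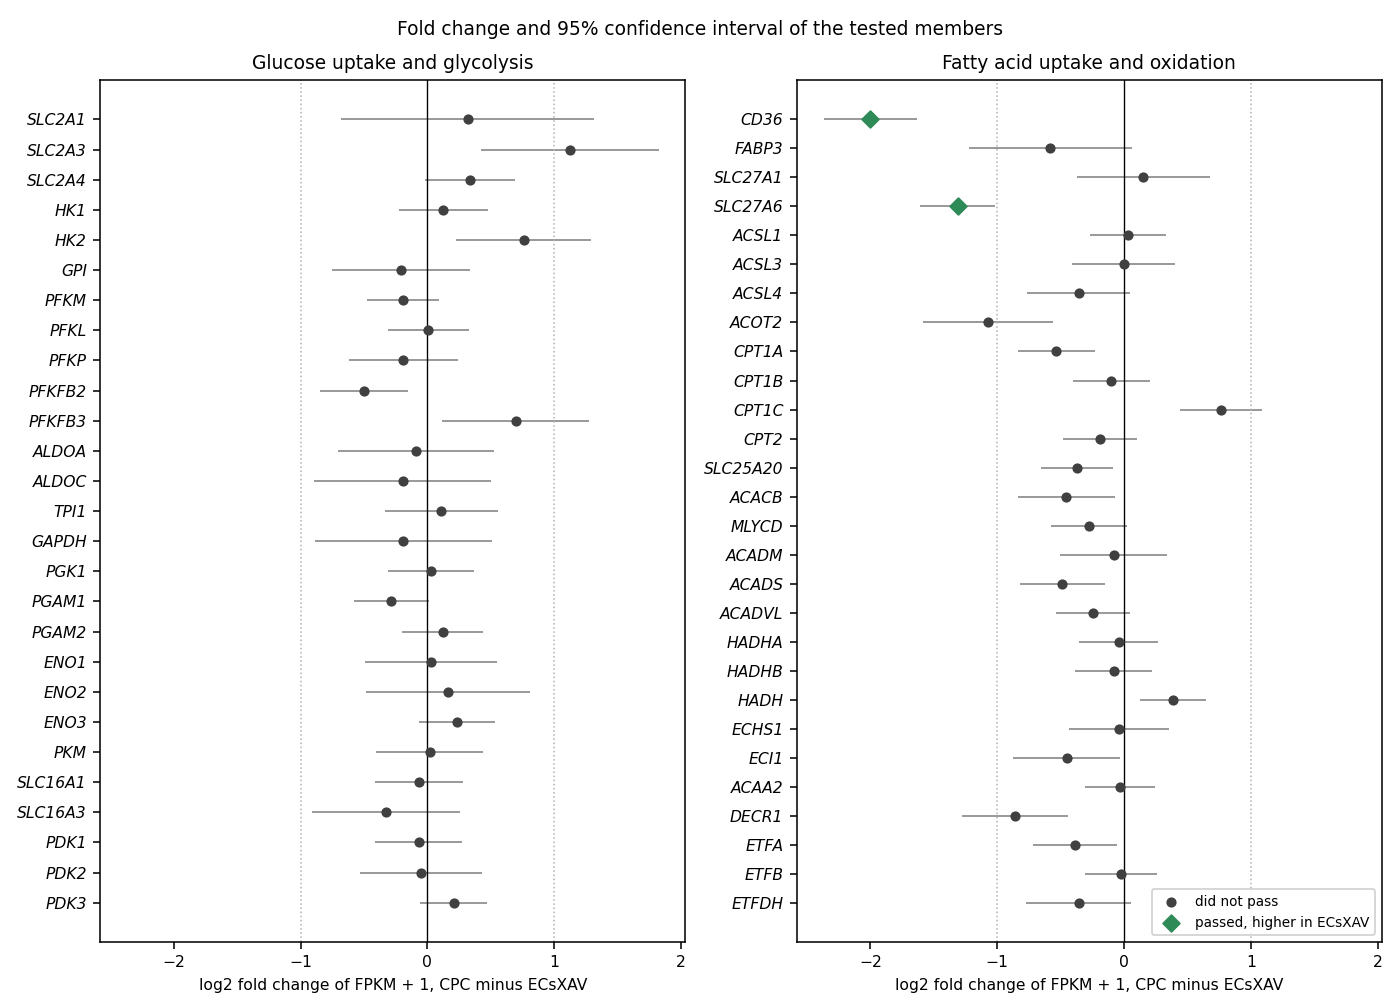
Log2 fold change of FPKM + 1, CPC minus ECsXAV (horizontal axes), with the 95% confidence interval, for the 27 tested glucose genes (left) and the 28 tested fatty acid genes (right), with dotted lines at a 2-fold change. CD36 and SLC27A6 (green diamonds) passed the criterion, and most other fatty acid genes lie left of 0 by less than a 2-fold change.

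The adjusted p-values depended on the short RNA genes in the table, whose FPKM varied strongly between replicates. With these genes left out, 12094 genes were tested, and SLC2A3 (adjusted p = 0.0193) and ACOT2 (adjusted p = 0.0101) passed the criterion beside CD36 and SLC27A6, as did 2.8% of all genes then tested. HK2 (adjusted p = 0.0383), CPT1C (adjusted p = 0.0145) and DECR1 (adjusted p = 0.0113) then had an adjusted p under 0.05 at a smaller fold change, as did 8.0% of all genes then tested at any fold change. The fold changes were the same, since only the shared spread and the number of tests differ.

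The glucose genes stood higher in replicate 2. Of the 27 tested, 24 were higher in replicate 2 than in replicate 1 in both groups, beside 33.2% of all tested genes and 10 of the 28 fatty acid genes. Between the CPC replicates SLC2A1 had the widest gap of the members on the log2 scale, from 80.8 to 174 FPKM, and between the ECsXAV replicates it went from 83.5 to 108 FPKM. The exceptions were SLC16A1 and PDK1, which were lower in replicate 2 in both groups, and PDK3, which was nearly level. The median difference of replicate 2 minus replicate 1, on log2(FPKM + 1), was 0.15 in ECsXAV and 0.25 in CPC for the glucose genes, and -0.02 and 0.08 for the fatty acid genes. Over all tested genes it was 0.02 and -0.01. The numbers 1 and 2 come from the sample names and are not known to mark a shared batch, and 8 of 16 tested hypoxia response genes outside glycolysis were higher in replicate 2 in both groups. The median difference of those 16 was 0.008 in ECsXAV and 0.55 in CPC, and its part in the result was not tested.

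**Figure D4:**
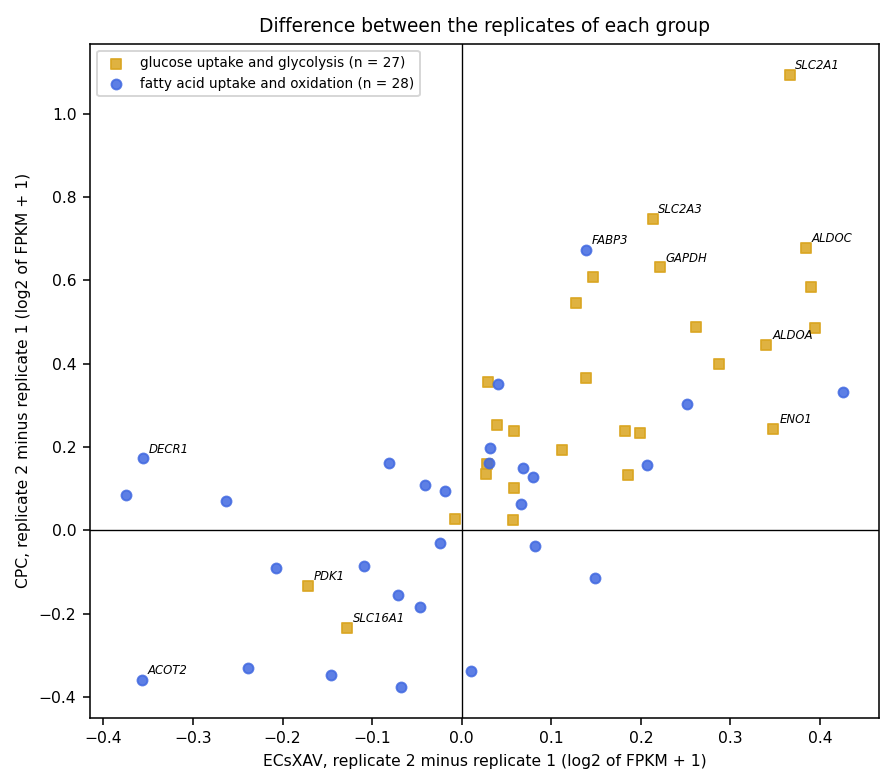
Difference of replicate 2 minus replicate 1 on log2(FPKM + 1) in ECsXAV (horizontal axis) and in CPC (vertical axis), 1 point for each tested gene. Of the 27 glucose genes (squares), 24 lie in the upper right part, higher in replicate 2 of both groups, against 10 of the 28 fatty acid genes (circles).

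Other genes of the same pathways, from wider lists, were read beside the members. TXNIP, which restrains glucose uptake and rises with glucose, fell in CPC from 120 and 84.7 FPKM to 30.3 and 17.6 FPKM (log2 fold change -2.08, adjusted p = 0.0451, limma). It was the only one of 18 tested further genes of glycolysis and of glucose, lactate and pyruvate transport to pass, and 14 of the 18 had the lower mean in CPC. PFKFB4 had the largest difference toward CPC among these, at 14.7 and 15.3 FPKM in ECsXAV and 18.1 and 29.6 FPKM in CPC, and did not pass. Of 21 tested genes of glycogen and the pentose phosphate pathway 2 passed. GYG1, which primes glycogen synthesis, read 60.3 and 64.8 FPKM in ECsXAV and 20.3 and 20.6 FPKM in CPC (log2 fold change -1.57, adjusted p = 0.0106). PPP1R3A, which brings a phosphatase to glycogen in muscle, read 2.59 and 3.24 FPKM in ECsXAV and 14.4 and 9.10 FPKM in CPC (log2 fold change 1.68, adjusted p = 0.0432). All 3 calls needed all 4 libraries: leaving out each in turn gave adjusted p-values of 0.112 to 0.187 for TXNIP, 0.0572 to 0.0851 for GYG1 and 0.0919 to 0.216 for PPP1R3A, with fold changes in the same direction.

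None of 25 genes of pyruvate dehydrogenase and the citric acid cycle passed the criterion in limma, and 4 had an unadjusted p under 0.05, beside 18.2% of all tested genes. Of the 25, 22 had the lower mean in CPC and 18 did not overlap, higher in ECsXAV, beside 25.4% of all tested genes, with a median log2 fold change of -0.20. SUCLG2, a subunit of succinate-CoA ligase, had the largest difference, at 17.2 and 15.7 FPKM against 10.1 and 9.90 FPKM, and pyruvate carboxylase PC the largest toward CPC, at 1.59 and 2.38 against 2.35 and 3.04 FPKM. Of 41 further tested genes of fatty acid uptake and oxidation none passed, and 9 had an unadjusted p under 0.05. The thioesterase ACOT7 had the largest difference among these, at 7.45 and 6.46 FPKM in ECsXAV and 1.84 and 3.41 FPKM in CPC (adjusted p = 0.087), and ACOT13 the largest toward CPC, at 15.4 and 15.1 against 19.6 and 22.8 FPKM. None of the 16 tested hypoxia response genes passed, and 3 had an unadjusted p under 0.05. The ends of that list were NDRG1, at 29.0 and 37 FPKM in ECsXAV and 9.57 and 20.1 FPKM in CPC, and ANKRD37, at 2.33 and 4.13 against 2.91 and 8.59 FPKM.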

How the data were processed

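Poly-A RNA of 2 CPC and 2 ECsXAV libraries was sequenced by the study. The deposited FPKM of genes and transcripts were made by the authors with Cufflinks 2.1.1 and UCSC annotation on hg19, and the submitters' processing notes also name TopHat 1.3.3. By the study's supplement, reads were aligned with Gsnap, and those with several alignments were left out of its read counts. How such reads were treated in the FPKM is not given in the sources used here. Read counts were not used here, so total depth is unknown, and relative depth is the modal ratio of FPKM between 0.005 and 0.1.

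The members and lists were chosen with earlier results of these data known, and groups came from the labels. The test was limma 3.58.1 (R 4.3.3), with a variance prior that follows the mean, on log2(FPKM + 1) of genes with a mean of at least 1 FPKM. The steps were tested on simulated data. For 554 symbols with several loci, none of them a member, the deposited rows join each locus value of a library to each one of the others. The row with the highest mean was taken, so it can combine values of different loci. Values in all 4 libraries were given for members past an adjusted p of 0.05, for the largest change in each direction of each role, for isoenzymes and for members under the filter. Further genes were named where they passed or led their list. The shares of PFKFB and SLC27A genes, the transcripts, the near-identical copies and the motifs were chosen after values were seen. Gene coordinates are from GENCODE release 44 lifted to GRCh37, and promoters from RefSeq on GRCh38.p14.

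Alternatives were another pseudocount (0.1), no filter and one at 5 FPKM, quantile normalization, median-of-ratios scaling, a constant variance prior, a block on the replicate number, leaving out short RNA genes, summed loci, the transcript table, and leaving out each library. A robust prior and the block without short RNA genes were added after the data were seen.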

Additional observations from a re-analysis of the deposited data

How the results depend on the processing

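Leaving out short RNA genes added 1 glucose gene, SLC2A3, to those past the criterion in CPC, as did a robust variance prior (1, adjusted p = 0.049) and the block without short RNA genes (1, adjusted p = 0.00123). ACOT2 passed under the same 3 settings (adjusted p = 0.0101, 0.0156 and 0.00146). Whatever the fold change, 7, 6 and 16 members then fell below an adjusted p of 0.05, among 968, 842 and 1652 genes in all, against 2 members among 358 genes in the main test. With a pseudocount of 0.1, 1 fatty acid gene, CPT1C, passed in CPC (log2 fold change 1.01, adjusted p = 0.0479). With no filter 0 fatty acid genes passed in ECsXAV, among 18731 tested genes of which 40 passed, against 266 of 12398. Of the further genes, TXNIP, PPP1R3A, MYH6 and MYH7 were lost there as well, and GYG1 and STAC3 passed. Leaving out 1 library, which leaves 1 replicate in a group, kept both CD36 and SLC27A6 higher in ECsXAV, while most of their calls were lost, as given above. The cause of these differences was not tested, beyond the change in the genes tested or in the number of libraries.

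The replicate number as a block left CD36 (adjusted p = 0.0352) and SLC27A6 (adjusted p = 0.0332) past the criterion, 2 fatty acid and 0 glucose genes, among 176 genes in all. With the block PPP1R3A (adjusted p = 0.0722) and MYH6 (adjusted p = 0.0582) no longer passed, and no other call of the members, TXNIP, GYG1, MYH7 or STAC3 was lost. The differences between replicates correlated across the 12398 genes between the groups with a Spearman's rho of 0.356 and a Pearson's r of 0.035, but the samples share only a number.

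With quantile normalization TXNIP (adjusted p = 0.0667) and PPP1R3A (adjusted p = 0.0504) missed the criterion. It also turned the log2 fold change of PDK1 to 0.076. Leaving out 1 library in turn gave log2 fold changes of -0.449 to 0.038 for GPI, -0.534 to 0.143 for ALDOC, -0.073 to 0.292 for TPI1, -0.156 to 0.016 for PDK1, -0.06 to 0.366 for SLC27A1 and -0.04 to 0.109 for ACSL1. The share of PFKP differed by -2.6 to 0.637 percentage points and that of PDK1 by -2.73 to 1.12. None of these 8 differences was called, and the cause was not tested. Of the members with a value above 0, FABP5 read the lowest, at 0.0853 and 0.170 FPKM in ECsXAV, and its processed copies also leave its level uncertain.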
